A study of Mus musculus with 26 samples.

Results

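The kainate and metabotropic glutamate receptor genes described here are Grik1, Grik2, Grik3, Grik4 and Grik5, which encode the 5 kainate receptor subunits, and Grm2, Grm3, Grm5 and Grm7, which encode metabotropic receptors. They were chosen by name, and every probe set that the array annotation assigns to 1 of these genes alone was kept, which gave 15 of the 45101 probe sets on each array and 9 of the 18194 genes represented. A probe set is a group of short probes that together read 1 stretch of a transcript. Where 1 value is given for a gene it is that of its brightest probe set, called the main probe set. Of the 15 probe sets, 13 had a mean above 4.33 on the log2 scale, the 30th percentile of all probe sets, and the other 2 (1439987_at of Grik1 and 1459532_at of Grm7) were dim.

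Glutamate is the main excitatory transmitter of the brain. Kainate receptors are ion channels of 4 subunits that sit on both sides of the synapse, where they tune transmitter release and carry a slow current, and they are known above all from the mossy fibre synapses of hippocampal area CA3. Metabotropic receptors act through G proteins: group I receptors (Grm5) raise calcium and drive phospholipase C, mostly after the synapse, while group II (Grm2, Grm3) and group III (Grm7) receptors inhibit adenylyl cyclase and dampen release.

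Messenger RNA had been measured in 2 regions of aged mice, the entorhinal cortex and the hippocampus, 4 weeks after a lentivirus was given to the entorhinal cortex, and each region had 4 groups. APP transgenic mice (TG) had received the BDNF virus (n = 4 arrays) or the GFP virus (n = 4), and non-transgenic mice (NTG) had received the GFP virus (n = 2) or a sham lesion (n = 3). BDNF is a secreted neuronal growth factor, GFP is a marker protein that serves as the vector control, and APP is the amyloid precursor protein. The labels name neither the line nor the promoter of the APP transgene, give no exact age, and do not say which arrays of the 2 regions came from 1 animal. No transgenic sham group and no non-transgenic BDNF group was analysed here. Values are log2 RMA values, so that a difference of 1 is a doubling. "Called" means an adjusted p under 0.05 in limma, with Benjamini-Hochberg adjustment over all 45101 probe sets. Probe sets differ in how strongly they bind, so levels are compared between samples for 1 probe set and never between genes.

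Array medians lay between 5.51 and 5.58, and the number of arrays limits the precision. The means over 9 oligodendrocyte genes were 7.61 on entorhinal BDNF array 3 and 7.71 on entorhinal NTG GFP array 2, the lowest of the 26 arrays, and the mean over 8 choroid plexus genes was 8.45 on hippocampal sham array 1, against 5.46 to 5.78 on the other hippocampal arrays. Leaving out these 3 arrays together was added as an alternative after seeing the data. Xist, the RNA of the inactive X chromosome in females, was high on 18 arrays and low on 8, and the low arrays were 8 of the 16 transgenic arrays and 0 of the 10 non-transgenic ones. In tissue pieces, fewer cells of a type and less RNA per cell cannot be told apart.

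Receptor levels differed by region. With the 4 groups weighted equally, 8 of the 9 main probe sets were called between entorhinal cortex and hippocampus. Grik1, Grik3, Grm3, Grm5 and Grm7 were higher in the entorhinal cortex, Grik2, Grik4 and Grik5 were lower there, and Grm2 was not called. Over all 15 probe sets, 10 were called (7 higher and 3 lower), against 39.4% of all probe sets (19.2% higher and 20.2% lower). These shares include dim probe sets and the 9211 without a gene symbol, here and beside every list of genes below. They are not a like background for chosen genes, so no excess over them is claimed. For 5 of the 15 the 13 entorhinal arrays did not overlap the 13 hippocampal arrays, against 6.69% of all probe sets. The median difference of the 15 was 0.15, against 0.0073 over all probe sets.

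**Figure D1:**
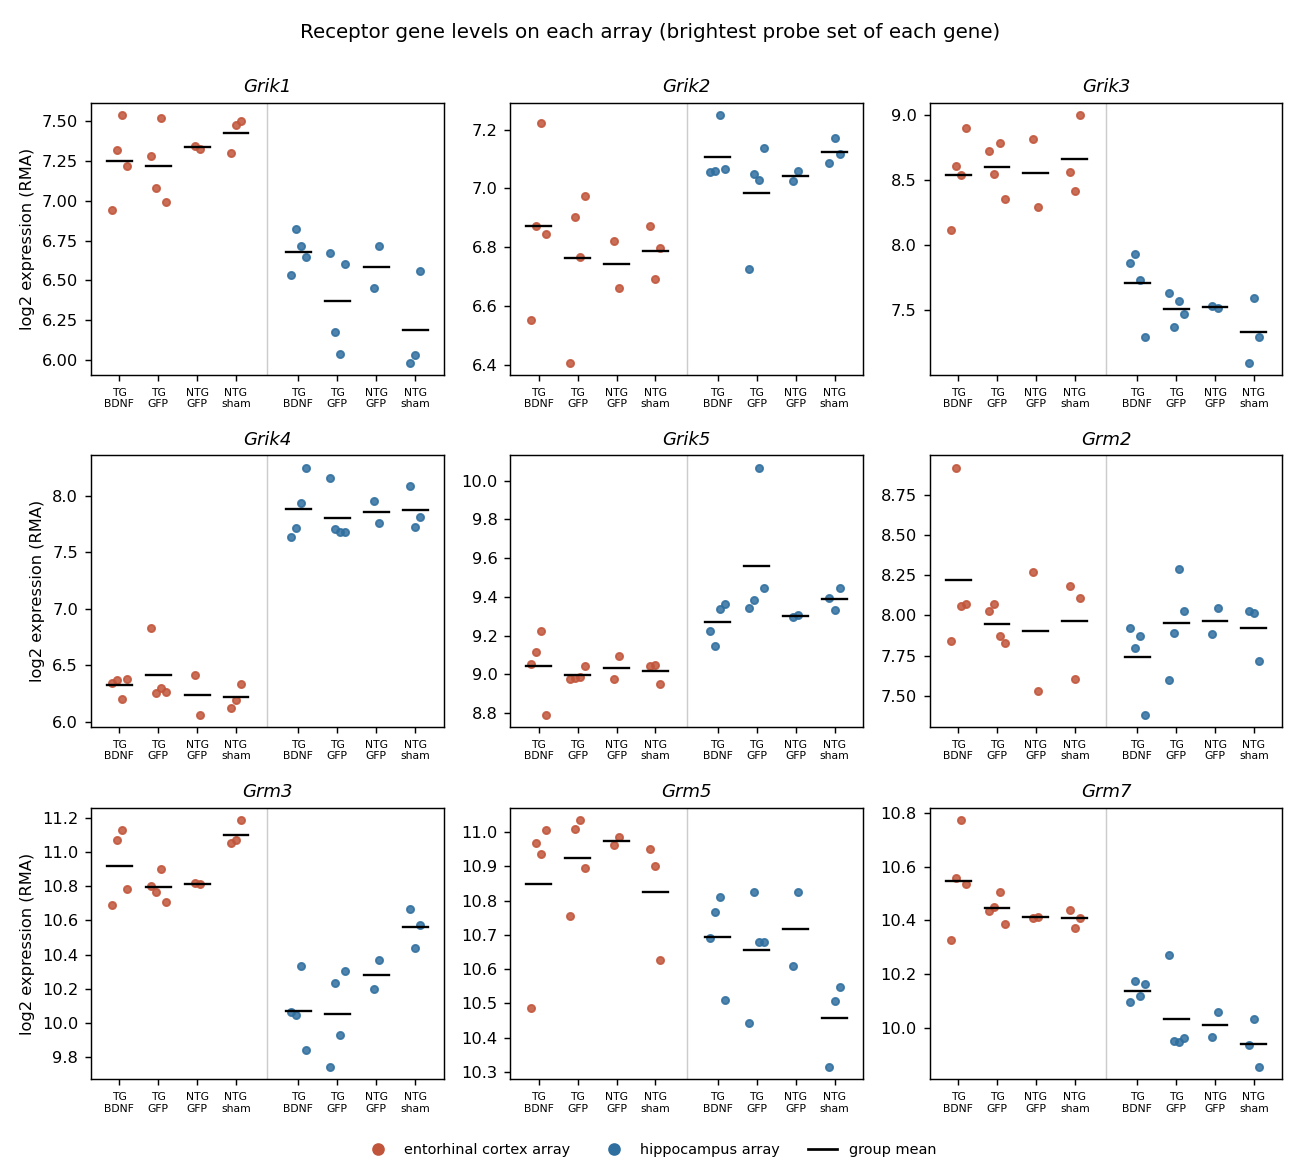
Log2 RMA value (vertical axis) of the main probe set of each of the 9 receptor genes on each array, by region and group; points are arrays and black bars are group means. In Grik1, Grik3, Grm3 and Grm7 every entorhinal array (left) lies above every hippocampal array (right), in Grik4 every one lies below, and in Grm2 the regions overlap widely.

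Among the kainate subunits, Grik4 differed most between the regions. It encodes GluK4, a high-affinity subunit that forms channels only together with GluK1, GluK2 or GluK3 and that in rodents is known for its expression in CA3 pyramidal and dentate granule cells. Its level was 6.06 to 6.83 in the entorhinal cortex (median 6.30) and 7.64 to 8.24 in the hippocampus (median 7.76). No entorhinal array reached the lowest hippocampal array. The entorhinal minus hippocampal difference was −1.55 ± 0.08 (SE, 13 and 13 arrays, limma adjusted p = 8.27e-13), which is a level 2.94 times as high in the hippocampus, and 0.576% of all probe sets differed by as much or more. Differences of 1 or more on the log2 scale were found for 2.13% of all probe sets. The entorhinal group means were 6.33 with TG BDNF, 6.41 with TG GFP, 6.24 with NTG GFP and 6.22 in sham mice, and the hippocampal means lay between 7.80 and 7.88. No comparison of groups within a region was called for Grik4.

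Grik5 encodes GluK5, the other high-affinity subunit, which likewise needs a partner from GluK1 to GluK3. It ranged from 8.79 to 9.23 in the entorhinal cortex (median 9.04) and from 9.15 to 10.07 in the hippocampus (median 9.34). The regions overlapped only in their margins, since the highest entorhinal value was that of BDNF array 3 and the 2 lowest hippocampal values, 9.15 and 9.22, were those of BDNF arrays. The difference was −0.36 ± 0.07 (limma adjusted p = 0.000135), and 14.2% of all probe sets differed by as much. The highest hippocampal value, 10.07, came from TG GFP array 3, and without that array the difference was still called.

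Of the subunits that can form channels on their own, Grik3 and Grik1 were higher in the entorhinal cortex. Grik3 encodes GluK3, a subunit of low glutamate sensitivity. It ranged from 8.12 to 8.99 in the entorhinal cortex (median 8.56) and from 7.10 to 7.93 in the hippocampus (median 7.53). Here too the regions did not overlap. The difference was 1.07 ± 0.10 (limma adjusted p = 5.38e-09), a 2.10-fold higher level, and 1.83% of all probe sets differed by as much. The hippocampal group means were 7.71 with TG BDNF, 7.51 with TG GFP, 7.53 with NTG GFP and 7.33 in sham mice, and the entorhinal means lay between 8.54 and 8.66. The other Grik3 probe set, 1427709_at, ranged from 4.68 to 5.13 in the entorhinal cortex and from 4.61 to 4.95 in the hippocampus and read a difference of 0.08 ± 0.05 (limma adjusted p = 0.212). The 2 probe sets therefore differ, and their values correlated at r = 0.25 over the 26 arrays.

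Grik1 encodes GluK1, a subunit known in the hippocampus mainly from interneurons. It ranged from 6.94 to 7.53 in the entorhinal cortex (median 7.31) and from 5.99 to 6.82 in the hippocampus (median 6.56). The regions did not overlap. The difference was 0.85 ± 0.09 (limma adjusted p = 4.69e-08), a 1.80-fold higher level. The hippocampal arrays of Grik1 were spread more widely than the entorhinal ones, with TG BDNF arrays at 6.54, 6.82, 6.72 and 6.64, TG GFP arrays at 6.67, 6.18, 6.04 and 6.60, NTG GFP arrays at 6.45 and 6.71, and sham arrays at 5.99, 6.03 and 6.56. The dim probe set 1439987_at read 0.15 ± 0.06 (limma adjusted p = 0.0654). It passed the threshold in some of the alternatives, with limma adjusted p from 0.0277 to 0.178. Without entorhinal sham array 3 it read 0.18 (limma adjusted p = 0.0277), and it was also called without entorhinal BDNF array 1, entorhinal TG GFP array 2 or hippocampal TG GFP array 3.

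Grik2 encodes GluK2, the principal subunit of kainate receptors at mossy fibre synapses. Its main probe set ranged from 6.41 to 7.22 in the entorhinal cortex (median 6.82) and from 6.73 to 7.25 in the hippocampus (median 7.06). The regions overlapped. The difference was −0.27 ± 0.07 (limma adjusted p = 0.00316). The other probe set, 1457683_at, ranged from 6.54 to 7.03 in the entorhinal cortex and from 6.42 to 6.92 in the hippocampus, and read 0.03 ± 0.06 (limma adjusted p = 0.717, 95% interval −0.09 to 0.15). Its interval excludes the size of the difference that the main probe set read. For Grik2 the direction thus rests on 1 of 2 probe sets of similar level.

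Among the metabotropic receptors, those of group II behaved differently from each other. Grm3 encodes mGlu3, which is found in astrocytes as well as neurons. It ranged from 10.69 to 11.19 in the entorhinal cortex (median 10.82) and from 9.74 to 10.67 in the hippocampus (median 10.24). The regions did not overlap, although the lowest entorhinal array (BDNF array 1) and the highest hippocampal array (sham array 1) lay close to each other. The difference was 0.67 ± 0.07 (limma adjusted p = 4.32e-08), a 1.59-fold higher level. Of 10 astrocyte genes, 4 were higher and 1 was lower in the entorhinal cortex, against 39.4% called in either direction of all probe sets, with means over the list of 10.21 to 10.51 on entorhinal and 10.27 to 10.54 on hippocampal arrays. The lower gene was Gfap, the filament protein of astrocytes, at −1.46.

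Grm2 encodes mGlu2, an autoreceptor of glutamatergic terminals. It ranged from 7.53 to 8.92 in the entorhinal cortex (median 8.06) and from 7.38 to 8.29 in the hippocampus (median 7.89). The regions overlapped widely. The difference was 0.11 ± 0.12 (limma adjusted p = 0.468, 95% interval −0.13 to 0.35), so that a difference of the size seen for Grm3 lies outside the interval. The highest value, 8.92, was that of entorhinal BDNF array 2. A probe set shared with the overlapping gene model Gm28111 was not counted as a member. It was dim, at means of 4.30 in the entorhinal cortex and 4.40 in the hippocampus, with a difference of −0.09 ± 0.05 (limma adjusted p = 0.196).

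The promoter windows of these group II genes are shown because only 1 of them was called between the regions. Whether the windows bear on that was not tested. Each is the 250 bases before the gene's start, from the RefSeq promoter table of build GRCm38.p6, both on the minus strand, at chr5:9725353-9725602 for Grm3 and chr9:106656110-106656359 for Grm2. Capitals mark the GC box GGGCGG, the core of the site bound by Sp1, found on either strand.
Grm3: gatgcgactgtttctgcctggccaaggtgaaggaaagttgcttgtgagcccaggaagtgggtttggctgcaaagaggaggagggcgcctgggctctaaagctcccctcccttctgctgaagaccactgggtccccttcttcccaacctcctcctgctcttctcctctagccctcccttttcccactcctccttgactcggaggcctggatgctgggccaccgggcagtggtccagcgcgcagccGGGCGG
Grm2: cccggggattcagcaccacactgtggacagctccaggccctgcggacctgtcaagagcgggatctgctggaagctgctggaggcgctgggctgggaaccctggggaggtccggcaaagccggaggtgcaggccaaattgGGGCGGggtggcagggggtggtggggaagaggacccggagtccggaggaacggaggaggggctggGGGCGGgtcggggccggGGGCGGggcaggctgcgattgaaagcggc

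The Grm3 window held 1 GC box and was 62.4% G or C, and the Grm2 window held 3 and was 71.2% G or C. Over the 32851 windows of the table, 32.7% held a GC box. Windows were found for 7 of the 9 genes (8 windows, since Grm7 has 2 starts), and 7 of the 8 held a GC box, all but that of Grik2. The 2 Grm7 windows overlap each other, each with 1 GC box, so they do not count as separate promoters. All windows but those of Grm2 and Grm3 overlapped the full span of their gene, in part or in whole. They precede a start in the promoter table and not the outermost end of the gene. None of the 8 held the cAMP response element TGACGTCA (1.55% of all windows), its core TGACG (17.8%) or the TATA box TATAAA (12.4%), each searched on both strands, with TGACG lying within TGACGTCA. The E-box CANNTG, held by 66.2% of all windows, was found in that of Grik3 only. These matches describe the letters of the windows and not bound sites. All 8 windows were rich in G and C, from 62% (Grm7) to 82% (Grik3), the 77.5th to the 99.4th percentile of all windows. The part of this richness in the number of GC boxes was not tested.

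Grm7, a group III receptor of presynaptic active zones, ranged from 10.33 to 10.77 in the entorhinal cortex (median 10.44) and from 9.85 to 10.27 in the hippocampus (median 10.03). The regions did not overlap, by a small margin. The difference was 0.42 ± 0.05 (limma adjusted p = 1.4e-07), a 1.34-fold higher level, and 11.1% of all probe sets differed by as much. The probe set 1458861_at of Grm7, at 5.10 to 5.83 in the entorhinal cortex and 5.21 to 5.53 in the hippocampus, read 0.02 ± 0.06 (limma adjusted p = 0.818). The dim probe set 1459532_at read 0.26 ± 0.09 (limma adjusted p = 0.0215), a call that ended without hippocampal NTG GFP array 1 (0.25, limma adjusted p = 0.051).

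Grm5 encodes mGlu5, the group I receptor of the forebrain, and its probe sets agreed in direction but not in size. The main probe set, 1455272_at, ranged from 10.49 to 11.04 in the entorhinal cortex (median 10.95) and from 10.31 to 10.82 in the hippocampus (median 10.68). The regions overlapped, and the difference was 0.26 ± 0.06 (limma adjusted p = 0.00221). The probe set 1456119_at ranged from 9.84 to 10.94 in the entorhinal cortex (median 10.59) and from 8.97 to 10.29 in the hippocampus (median 9.70). It too overlapped, and its difference was 0.83 ± 0.12 (limma adjusted p = 5.02e-06). The intervals of the 2 differences, 0.13 to 0.40 and 0.59 to 1.08, do not meet. Their values correlated at r = 0.78 over the 26 arrays, and at r = 0.81 after the group means were taken off, the closest of the 6 pairs of a main probe set with another of its gene. No correlation over these arrays is independent of the regions unless the group means are removed.

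**Figure D2:**
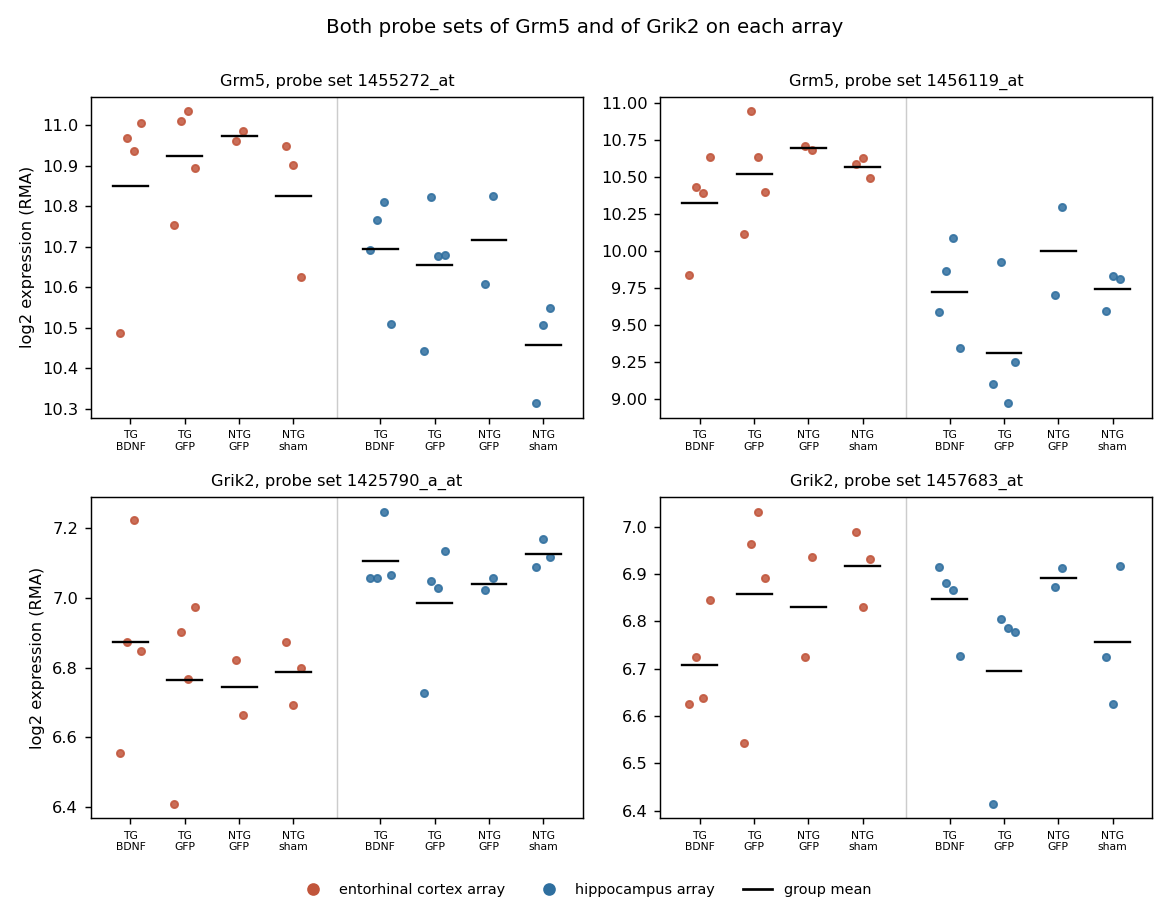
Log2 RMA value (vertical axis) on each array of both probe sets of Grm5 (top) and of Grik2 (bottom), by region and group; points are arrays and black bars are group means. Both Grm5 probe sets are higher in the entorhinal cortex (left in each panel), 1456119_at by 0.83 and 1455272_at by 0.26, whereas Grik2 is lower there only on 1425790_a_at.

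The regional pattern was seen in both genotypes. In transgenic mice 9 of the 15 probe sets were called (32.8% of all probe sets), and in non-transgenic mice 9 of 15 (23.9%). The Grik4 difference was −1.47 ± 0.10 in transgenic mice (8 and 8 arrays) and −1.64 ± 0.13 in non-transgenic mice (5 and 5 arrays). Grik3 read 0.96 ± 0.12 in transgenic and 1.20 ± 0.15 in non-transgenic mice. Grik1 read 0.71 ± 0.11 in transgenic and 1.04 ± 0.14 in non-transgenic mice, and Grm3 read 0.79 ± 0.08 in transgenic and 0.54 ± 0.11 in non-transgenic mice. The difference between the genotypes was tested directly. It was −0.33 for Grik1 (95% interval −0.69 to 0.03) and 0.26 for Grm3 (−0.02 to 0.54), each with limma adjusted p = 0.893, and limma called 0 of the 45101 probe sets (5.53% had an unadjusted p under 0.05). An unadjusted p under 0.05 was found for 1 of the 15 member probe sets, 1458861_at of Grm7. Its difference between the genotypes was 0.29 (95% interval 0.05 to 0.54), and it read 0.18 in transgenic and −0.11 in non-transgenic mice, neither called.

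**Figure D3:**
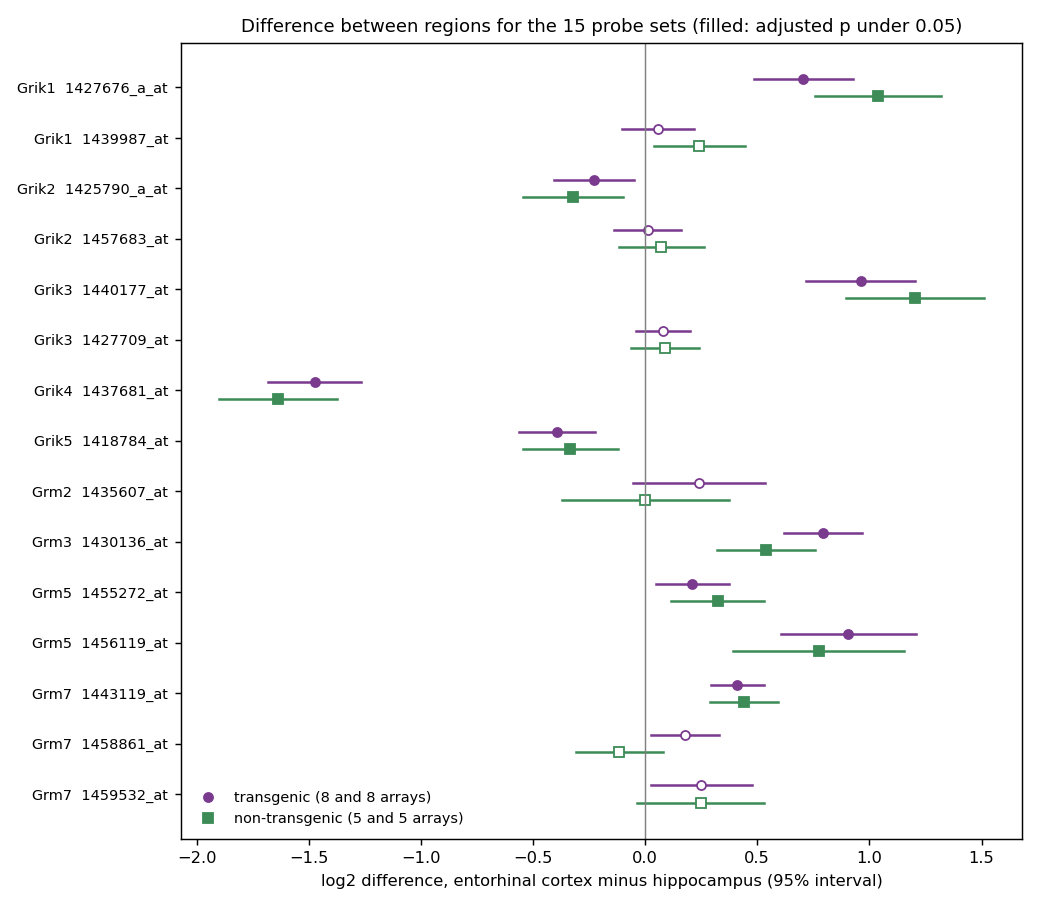
Entorhinal minus hippocampal log2 difference (horizontal axis) with its 95% interval for the 15 probe sets, in transgenic (circles, 8 and 8 arrays) and non-transgenic mice (squares, 5 and 5 arrays); filled symbols are called. Grik4 lies at −1.47 and −1.64, Grik3 at 0.96 and 1.20, and the same 9 probe sets are filled in both genotypes.

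The makeup of the tissue pieces differed between the regions as well. Higher and lower here mean called, as were 19.2% (higher) and 20.2% (lower) of all probe sets, dim ones and those without a gene symbol included. All 9 oligodendrocyte genes measured were lower in the entorhinal cortex (median −1.35), with list means of 7.61 to 9.24 there and 9.67 to 10.36 in the hippocampus. Of 7 dentate granule cell genes 6 were lower (median −2.37; means of 5.89 to 6.30 in the entorhinal cortex and 7.82 to 8.64 in the hippocampus), and of 6 CA3 genes 4 were lower and 1 was higher (median −1.28). Of 5 CA1 genes 3 were lower and 2 were higher (median −2.01; means of 8.01 to 8.71 in the entorhinal cortex and 9.55 to 9.89 in the hippocampus). All 5 genes of excitatory neurons were lower (median −0.70; means of 10.26 to 10.45 in the entorhinal cortex and 10.96 to 11.35 in the hippocampus). Of 7 cortical genes 5 were higher and 2 were lower (median 0.72; means of 7.95 to 8.53 in the entorhinal cortex and 7.42 to 7.66 in the hippocampus). Their part in the receptor differences was not tested. Without the 3 arrays that stand apart, 9 of the 15 receptor probe sets were called, against 10 with all arrays (39.4% of all probe sets).

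Genes that work with the receptors differed in both directions. Of the remaining metabotropic receptors with a probe set of their own, Grm8 (1.34 ± 0.11, limma adjusted p = 6.37e-10) and Grm4 (0.67 ± 0.07), both group III receptors, were higher in the entorhinal cortex. Of 13 kainate receptor partners 5 were higher and 2 were lower, against 19.2% higher and 20.2% lower of all probe sets. Their median was 0.0035, against 0.0073 over all probe sets. Each partner gene was read by its brightest probe set, whereas the shares cover dim and unnamed probe sets too. Whether any of these lists exceeds the share among bright probe sets of genes was not tested. C1ql2, a secreted protein that in the mouse links mossy fibre terminals to GluK2 and GluK4, read −2.97 ± 0.17 (limma adjusted p = 3.4e-12), and Neto1, an auxiliary subunit of kainate receptors, −0.68 ± 0.06. The scaffold gene Dlg1 (0.66 ± 0.04) and the adhesion gene Cdh2 (0.63 ± 0.05) were higher. C1ql2 is also 1 of the 7 dentate granule cell genes above. Its relative C1ql3, named after its value was seen, was not called (0.14 ± 0.07, limma adjusted p = 0.105).

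Of 16 genes of group I receptor signalling 3 were higher and 7 were lower, against 19.2% higher and 20.2% lower of all probe sets (median −0.08). Homer3, a postsynaptic scaffold that binds group I receptors, read −2.32 ± 0.07 (limma adjusted p = 5.59e-17), Dagla, which makes the endocannabinoid 2-AG downstream of them, −0.73 ± 0.05, and Ncdn, a binding partner of mGlu5, −0.57 ± 0.04, whereas the phospholipase C gene Plcb4 read 0.55 ± 0.05. Grm5 itself was higher in the region in which these 3 genes were lower. Of 17 genes of group II and III signalling 7 were higher and 3 were lower, against the same 19.2% and 20.2% (median 0.05), among them the adenylyl cyclases Adcy8 (1.39 ± 0.06) and Adcy2 (−0.41 ± 0.06), the mGlu7 binding partner Elfn1 (0.35 ± 0.06) and Rgs7, a brake on inhibitory G proteins (0.26 ± 0.04). Of 8 genes of glutamate transport and metabolism 5 were higher and 2 were lower, again against 19.2% and 20.2% (median 0.17). The vesicular transporter Slc17a6 read 1.04 ± 0.15, the neuronal uptake transporter Slc1a1 −0.71 ± 0.03, the glutamine transporter Slc38a1 0.37 ± 0.05 and the astrocytic transporter Slc1a2 0.16 ± 0.04.

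**Figure D4:**
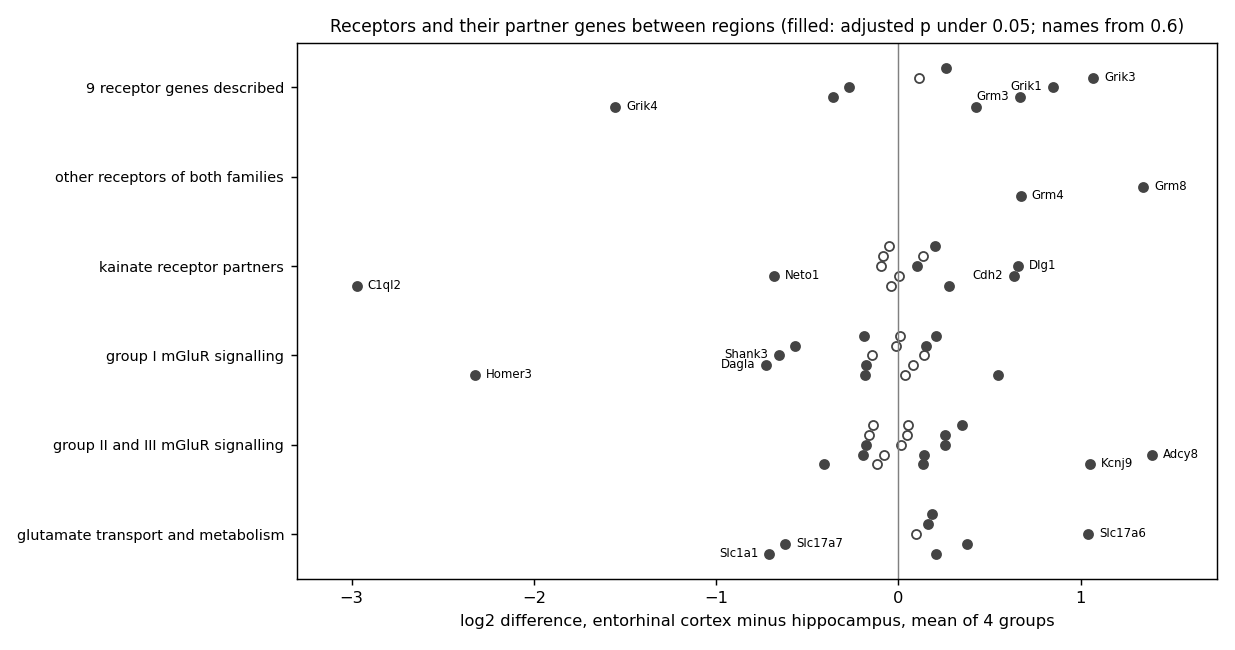
Entorhinal minus hippocampal log2 difference (horizontal axis) of the main probe set of the 9 receptor genes and of 5 lists of other genes (rows), 1 point per gene; filled points are called, and genes with a difference of 0.6 or more are named. Each list but that of the other receptors holds genes on both sides of 0, with C1ql2 at −2.97 and Homer3 at −2.32 farthest to the left.

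Grik3 moved with Grik1 and Grm7, and against Grik4, mainly through the regions. Over the 26 arrays Grik3 correlated with Grik1 at r = 0.89, with Grm7 at 0.89 and with Grik4 at −0.89. With the group means removed these values were 0.32, 0.35 and −0.02, so that little of the likeness lay between arrays of 1 group. Grik1 and Grm7 (0.53), Grik2 and Grm5 (0.60), and Grik4 and Grm5 (−0.60) were the pairs with the strongest relation that remained. Over all arrays Grik4 and Grm5 had read −0.70, but Grik2 and Grm5 −0.17. Grm3 and Grm5 read 0.52 before and 0.50 after the removal, and Grik2 and Grik4 turned from 0.55 to −0.52. Arrays share their normalization, and these correlations are descriptions.

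Among 14940 other genes, that whose level over the 26 arrays was most like Grik4 was Hpca (r = 0.98), which encodes the calcium sensor hippocalcin, followed by Arhgef6 and St18. Most like Grik3 were Shisa9 (r = 0.96), an auxiliary protein of AMPA receptors, Dzank1 and Bnip5. For Grik1 they were Mir124-2hg (r = 0.93), Tmx4 and Lrrtm3, and for Grik5 Epn1 (r = 0.96), Agap3 and Tbc1d22b. Grm3 was most like Celf4 (r = 0.93), Map1b and Cspg5, and Grm7 most like Ptpn4 (r = 0.95), Rgs17 and Gcnt2. For the genes with a small or uncalled regional difference the closest values were lower, 0.89 for Grik2 (Araf), 0.82 for Grm5 (Fyttd1) and 0.70 for Grm2 (Lrrc59). With the group means removed, Grik5 was most like Agap3 (r = 0.96), and TG GFP array 3 of the hippocampus is the array that departs furthest in Grik5.

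BDNF was compared with GFP in transgenic mice, in the region that received the virus and in the hippocampus to which it projects. In the entorhinal cortex limma called 0 of the 15 receptor probe sets and 0% of all probe sets, with 0 of the 15 and 4.56% of all at an unadjusted p under 0.05. The member with the largest difference was Grm2, at 7.84, 8.92, 8.06 and 8.07 on BDNF arrays, against 8.03, 8.07, 7.87 and 7.83 on GFP arrays. The groups overlapped, 1 BDNF array stood above the rest, and the difference was 0.27 (95% interval −0.21 to 0.76). In the hippocampus again 0 of 15 were called (0% of all), and 1 of the 15 had an unadjusted p under 0.05, against 4.69% of all.

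That member was Grik5, at 9.22, 9.15, 9.34 and 9.36 on hippocampal BDNF arrays, against 9.34, 9.38, 10.07 and 9.44 on hippocampal GFP arrays. The groups overlapped slightly. The difference was −0.29 ± 0.13 (unadjusted p = 0.0445, limma adjusted p = 0.988), and it was −0.12 without GFP array 3. Probe set 1456119_at of Grm5 was at 9.59, 9.86, 10.09 and 9.34 on BDNF arrays, against 9.10, 9.92, 8.97 and 9.25 on GFP arrays, which overlapped. It read 0.41 (95% interval −0.04 to 0.86). In the entorhinal cortex the same probe set read −0.20, and the difference of the BDNF effects between regions was −0.61 (unadjusted p = 0.0482, limma adjusted p = 1). Limma called 0 probe sets for that difference (4.09% of all and 3 of the 15 had an unadjusted p under 0.05). Besides this Grm5 probe set, the 3 were Grik5 at 0.34 and probe set 1457683_at of Grik2 at −0.30. With 1 array left out, Grik5 read 0.17 to 0.42 and the Grik2 probe set −0.41 to −0.21.

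The effect of the APP transgene was read from the TG GFP arrays, which also serve as the controls of BDNF, against all 5 non-transgenic arrays. In the entorhinal cortex limma called 0 of the 15 receptor probe sets (0.00887% of all) and in the hippocampus 0 of 15 (0.0155% of all). At an unadjusted p under 0.05 there were 1 of 15 in the entorhinal cortex (4.01% of all) and 2 of 15 in the hippocampus (4.25% of all). Since the low Xist arrays were transgenic only, the transgene and the Xist class are partly mixed. With Xist as a covariate the number of called members was still 0.

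Grm3 had the smallest p of the 15 in the hippocampus. Its values were 9.74, 10.23, 9.93 and 10.30 on TG GFP arrays, against 10.20 and 10.37 on NTG GFP arrays and 10.67, 10.44 and 10.57 on sham arrays. TG GFP arrays overlapped the NTG GFP arrays and lay below every sham array. The difference from all non-transgenic arrays was −0.40 ± 0.12 (unadjusted p = 0.00627, limma adjusted p = 0.999), and −0.52 with Xist as a covariate (limma adjusted p = 0.590). TG BDNF arrays, at 10.06, 10.05, 10.33 and 9.84, read −0.38 ± 0.12 against the same non-transgenic arrays (limma adjusted p = 0.777). Entorhinal Grm3 read −0.19 (95% interval −0.40 to 0.01) with TG GFP. The means over the 10 astrocyte genes were 10.27 to 10.54 on hippocampal TG GFP arrays, against 10.47 to 10.48 on NTG GFP arrays and 10.40 to 10.46 on sham arrays. Of the 10, 8 had a lower and 2 a higher mean with TG GFP than in non-transgenic mice, with 0 called. Named after their values were seen, Slc1a3 read −0.22 and Gjb6 −0.20, and Gfap read 0.26 and Aqp4 0.11. Their part in the Grm3 difference was not tested.

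Among the non-transgenic arrays, Grm3 was highest in sham mice. In the hippocampus the 3 sham arrays of Grm3 lay above all 10 others, as for 0.922% of all probe sets, and this held for 1 of the 15 receptor probe sets. In the entorhinal cortex the sham arrays of Grm3, at 11.05, 11.07 and 11.19, had the highest group mean (11.10) but overlapped TG BDNF arrays, which read 10.69, 11.07, 11.13 and 10.79. NTG GFP arrays there were at 10.82 and 10.81, so that GFP against sham read −0.29 ± 0.13 (unadjusted p = 0.0433, limma adjusted p = 1). Hippocampal sham array 1, with its high choroid plexus genes, was the highest in Grm3, and without it the hippocampal transgene difference was −0.36.

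Grm5 was the other gene of this kind in the hippocampus, by probe set 1456119_at. Its TG GFP arrays, given above, stood at a mean of 9.31, against 9.70 and 10.29 on NTG GFP arrays and 9.59, 9.83 and 9.81 on sham arrays. TG GFP array 2, at 9.92, was the only one of its group to overlap them. The difference was −0.54 ± 0.20 (unadjusted p = 0.0172, limma adjusted p = 0.999), and −0.69 ± 0.25 against NTG GFP arrays alone (limma adjusted p = 1). The value against NTG GFP arrays was −0.39 without NTG GFP array 2 and −0.98 without NTG GFP array 1. The main probe set of Grm5 did not share it, with 0.10 (95% interval −0.10 to 0.29). The difference of the transgene effect between the regions was called by limma for 0 probe sets, and 0 of the 15 had an unadjusted p under 0.05 (2.39% of all).

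**Figure D5:**
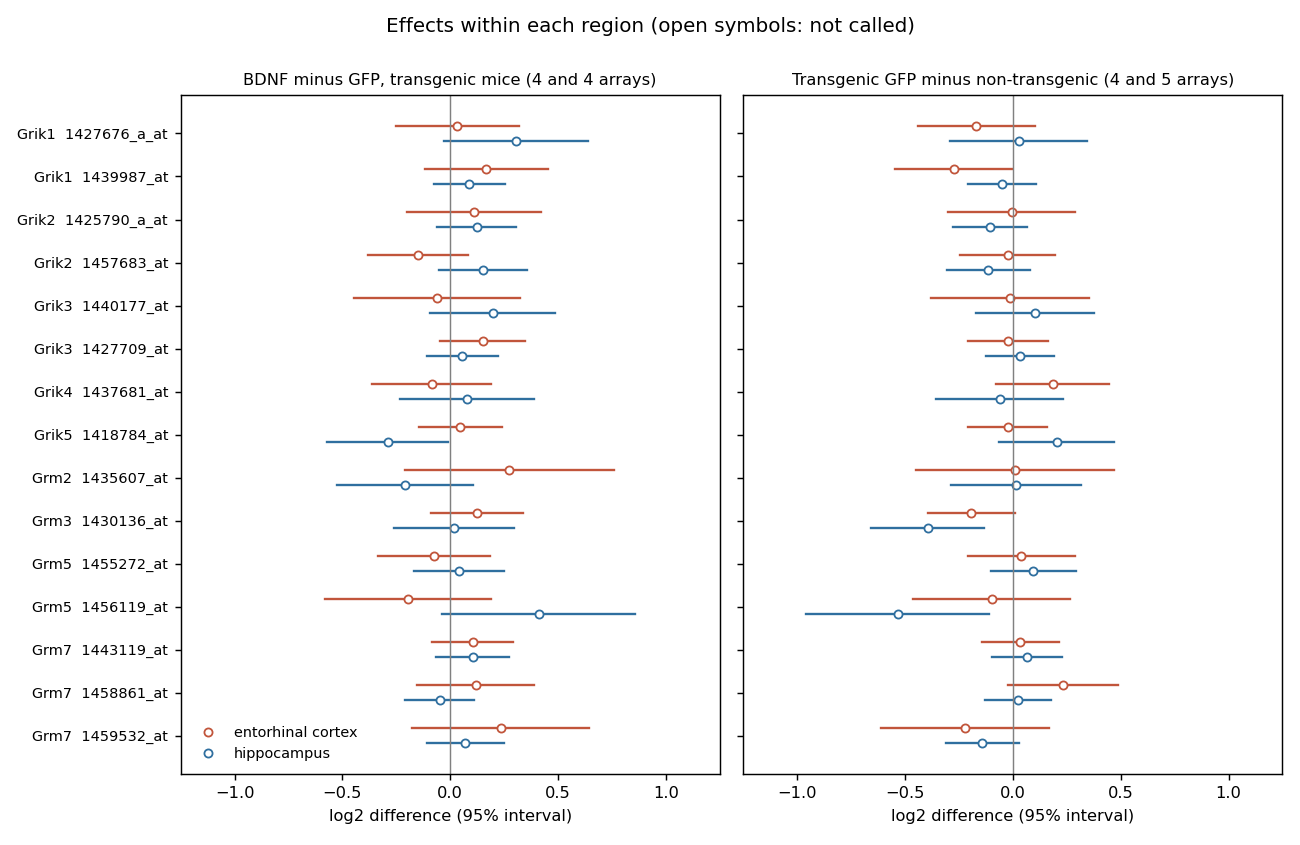
Log2 difference (horizontal axis) with its 95% interval for the 15 probe sets in the entorhinal cortex (upper of each pair) and the hippocampus (lower), for BDNF minus GFP in transgenic mice (left panel, 4 and 4 arrays) and TG GFP minus all non-transgenic arrays (right panel, 4 and 5 arrays). All symbols are open because none was called; hippocampal Grm3 at −0.40 and Grm5 1456119_at at −0.54 lie farthest to the left in the right panel.

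TG BDNF mice were also set against the 5 non-transgenic arrays. In the entorhinal cortex 0 of 15 were called (0.0111% of all) and 1 of 15 had an unadjusted p under 0.05 (9.85% of all), probe set 1458861_at of Grm7 at 0.35 ± 0.12 (limma adjusted p = 0.432). In the hippocampus 0 of 15 were called (0.00887% of all) and 4 of 15 had an unadjusted p under 0.05 (5.76% of all). These were Grm3, given above, Grik1 (0.33 ± 0.15), Grik3 (0.30 ± 0.13) and Grm7 (0.17 ± 0.07), with limma adjusted p from 0.777 to 0.854. For Grm7 the TG BDNF arrays lay at 10.10, 10.18, 10.12 and 10.16, against 9.96 and 10.06 on NTG GFP arrays and 9.94, 10.03 and 9.85 on sham arrays. The groups did not overlap, as for 1 of the 15 and 2.44% of all probe sets. Entorhinal groups of 1458861_at did not overlap either, 1 of the 15 against 3.39% of all.

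Against the NTG GFP arrays alone, TG GFP arrays gave 0 called members in the entorhinal cortex (0.00443% of all) and 0 in the hippocampus (0.00443%). An unadjusted p under 0.05 was found for 0 of 15 in the entorhinal cortex (2.57% of all) and for 1 of 15 in the hippocampus (4.16% of all), the Grm5 probe set above. GFP against sham in non-transgenic mice gave 0 called members in the entorhinal cortex (0.00443%) and 0 in the hippocampus (0.0244%), with 1 of 15 (Grm3) in the entorhinal cortex (2.84% of all) and 0 of 15 in the hippocampus (8.64% of all) at an unadjusted p under 0.05. In the hippocampus Grik1 read 0.39 ± 0.20 and the main probe set of Grm5 0.26 ± 0.12. Over all 10 comparisons within a region, the 150 member values lay between −0.69 and 0.41, the smallest limma adjusted p was 0.432, and 11 of the 150 had an unadjusted p under 0.05. These comparisons share arrays and are not independent of each other. Of the 5 lists of partner genes, limma called 0 members with BDNF or with the transgene in either region.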

How the data were processed

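The log2 values of 26 Affymetrix arrays were deposited by the authors as 1 table of 45101 probe sets, computed by RMA, per the submitters' processing notes. RMA subtracts background, forces the arrays to 1 distribution of intensities and fits 1 value per probe set. Neither its version nor a genome build is given in the sources used. The labels call the arrays of a group biological replicates without saying whether each is 1 animal, and no arrays held identical values. Gene symbols came from the platform annotation (34958 probe sets with 1 symbol, 932 with several, 9211 with none), and 34754 were looked up through Entrez identifiers in a RefSeq gene table of GRCm38.p6.

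The lmFit and eBayes functions of limma 3.58.1, in R 4.3.3, were applied to all probe sets, with the 13 arrays and 4 groups of a region in 1 fit, or all 26 arrays and 8 groups where regions were compared. Tests were 2-sided with Benjamini-Hochberg adjustment over all probe sets, and errors are moderated standard errors. Alternatives were a further quantile normalization, subtraction of each array's median, a filter at the 30th percentile, 1 probe set per gene, eBayes with trend and robust options, other sets of arrays in the fit, the replicate number as a block, Xist as a covariate, and leaving out each array.

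The receptor genes and all gene lists were chosen with earlier results of these data known. All probe sets of the 9 genes are named. Of each partner list up to 4 called genes with the smallest p are named, and for each receptor up to 3 genes with the highest Pearson correlation over the arrays, from genes represented by their brightest probe set above the 30th percentile.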

Additional observations from a re-analysis of the deposited data

Results flagged for a closer look

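In each group of 4 arrays the highest and lowest array were set against the others by Dixon's ratio at its 95% critical value, over the 15 receptor probe sets. Of 60 such groups 7 held an array that stood apart, where chance gives about 5%. The 60 are not independent, since the 15 probe sets were read on the same arrays and some belong to 1 gene. The 7 can therefore not be read as an excess over that share. Array 1 of the hippocampal TG GFP group held 3 of the 7: Grik4 at 8.16 (others 7.68 to 7.70), Grm7 at 10.27 (others 9.95 to 9.96) and probe set 1457683_at of Grik2 at 6.42 (others 6.78 to 6.81). Array 1 of the entorhinal TG GFP group was likewise high in Grik4, at 6.83 (others 6.26 to 6.30). These 2 arrays share a number, but Xist was low (5.45) on the entorhinal and high (11.02) on the hippocampal one. Hippocampal TG GFP array 3 was high in Grik5, at 10.07 (others 9.34 to 9.44). Hippocampal BDNF array 3 was high in the main probe set of Grik2, at 7.25 (others 7.06 to 7.07), and entorhinal BDNF array 1 was low in the main probe set of Grm5, at 10.49 (others 10.94 to 11.01).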

How the results depend on the processing

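Between the regions, 10 member probe sets were called, 8 to 11 over the alternatives and 9 to 11 with 1 array left out. The low end of 8 came with 1 probe set per gene, where only the 9 main probe sets were tested. The filter at the 30th percentile kept 13 of the 15. The 8 main probe sets that were called kept their direction and stayed called in every alternative and without any 1 array, Grik4 between −1.60 and −1.47. Probe set 1458861_at of Grm7, not called at 0.02, reversed to −0.0046 without the 3 arrays that stand apart, and read −0.0033 to 0.047 with 1 array left out, the lowest without entorhinal NTG GFP array 2. The cause was not tested. The dim 1459532_at of Grm7 lost its call after renewed quantile normalization (0.21, limma adjusted p = 0.0768) and without those 3 arrays (0.27, limma adjusted p = 0.0581), and the dim 1439987_at of Grik1 gained one after centring on the median (0.16) and with the Xist covariate (0.15). Within a region and in the tests of differences between effects, 0 members were called under any setting. Over all probe sets, the settings and omissions of 1 array gave 1 to 3 calls (2 in the fit reported), 2 to 6 (4), 2 to 22 (5) and 1 to 5 (2) in the entorhinal cortex for TG GFP against NTG GFP, TG GFP against all non-transgenic, TG BDNF against all non-transgenic, and GFP against sham. In the hippocampus the same comparisons gave 1 to 8 (2), 2 to 8 (7), 1 to 14 (4) and 0 to 72 (11). BDNF against GFP gave 0 to 3 (0) in the hippocampus and 0 in the entorhinal cortex. With 1 probe set per gene, which tests fewer features, 7746 were called between regions, against 17751 of all probe sets. In transgenic mice the counts were 6624 against 14810, and in non-transgenic mice 5497 against 10795. These lower counts come with fewer features tested, so they do not show a smaller share called. The replicate numbers were checked as a pairing. Same-numbered arrays of the 2 regions correlated at −0.37 to 0.41 in their deviations from group means, 3 of 13 pairs over 0.1. The 2 NTG GFP pairs, both at 0.41, are bound to be equal, because a group of 2 has mirrored deviations. Both Xist classes were held by 6 of 8 transgenic pairs, so an equal number does not mark 1 animal in these 6. Arrays of unequal number within a genotype and treatment correlated at −0.41 to 0.45, 11 of 32 pairs over 0.1. Whether 1 animal gave arrays of both regions under unequal numbers was not tested. The tests between regions took all arrays as independent. With the replicate block, 10 members were called between regions, 8 in transgenic mice and 9 in non-transgenic mice, and 0 within a region. This block joins same-numbered arrays, so it cannot show how the results depend on a pairing by animal.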
